A study of Mus musculus with 6 samples.

Results

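Glycolysis isoenzymes, glucose transporters and lactate transporters were examined in 3T3-L1 adipocytes exposed to leukemia cell conditioned media (LCM). The members are a fixed list of 40 mouse genes that runs from glucose uptake to lactate release, with the pyruvate dehydrogenase kinases at the branch into mitochondria. A member counted as measured where a row of the array table names that gene and no other. This held for 30 of the 40, among 14860 genes tested in all. Pgam1, Pgm1 and Pgm2 have rows that also name a further gene, and no row was used for Hk3, Gpi1, Pfkfb1, Gapdh, Pgk1, Eno1 and Ldha, so 4 of the 16 steps hold no measured member.

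3T3-L1 is a mouse pre-adipocyte line, here obtained from ATCC and used at low passage, that takes on the form of a fat cell when given an adipogenic cocktail. All 6 cultures were differentiated in this way, for 7 days, and were kept in RPMI1640 with 10% fetal bovine serum per the labels, although the study's methods name high glucose DMEM. The control group (n = 3) stayed in regular media. The LCM group (n = 3) received for 24 hours a medium in which leukemia cells had grown for 48 hours. The labels name the leukemia cells as 8093, a mouse Philadelphia chromosome positive acute lymphoblastic leukemia line, in RPMI1640 with 10% serum, IL-3 and BME (beta-mercaptoethanol), whereas the methods describe LCM made with the human line BV173. No source read here says whether the regular media of the control group held IL-3 or BME, so the medium, its additives and what the leukemia cells released or used up cannot be told apart. One cell line was used, and the arrays are described as biological triplicates. Values are log2 expression values from Affymetrix arrays, 1 array per culture.

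Glycolysis turns glucose into pyruvate in the cytosol, and many of its steps can be run by more than one enzyme, each from its own gene and each with its own tissue pattern. Facilitative glucose transporters bring glucose in, hexokinase traps it as a phosphate, phosphofructokinase commits it to breakdown, and lactate dehydrogenase with the monocarboxylate transporters disposes of pyruvate as lactate. Fat cells use the same pathway to make glycerol phosphate for triglyceride, and take up glucose in response to insulin through GLUT4. Several glycolytic genes are known targets of the hypoxia factor HIF, which binds DNA at a short element with the core RCGTG, where R is A or G.

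In LCM, 8 of the 30 measured members rose (26.7%) and Pfkfb3 fell, with a further 21 not past the threshold of an adjusted p of 0.05 from limma. Over all genes tested, 2.29% rose and 1.97% fell. The risers were the glucose transporter Slc2a1, the hexokinases Hk1 and Hk2, the phosphofructokinase Pfkp, the aldolase Aldoc, the enolase Eno2 and the monocarboxylate transporters Slc16a1 and Slc16a3. They came from 6 of the 12 steps with a measured member, and in 5 of these 6 at least 1 other isoform of the step did not pass. The median log2 fold change was 0.17 over the 30 members and -0.03 over all genes. All 3 LCM arrays lay above all 3 control arrays for 13 members and below them for 4, against 12.8% and 14.7% of all genes. Leaving out 1 array changed the count of risers to 5, 9 and 7 without control replicates 1, 2 and 3, and to 2, 1 and 1 without LCM replicates 1, 2 and 3. Over all genes, 341 rose and 292 fell with all 6 arrays. Calls in either direction over all genes numbered 175, 1332 and 350 without control replicates 1, 2 and 3. They numbered 99, 79 and 60 without LCM replicates 1, 2 and 3. Pfkfb3 fell in each of these subsets.

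**Figure D1:**
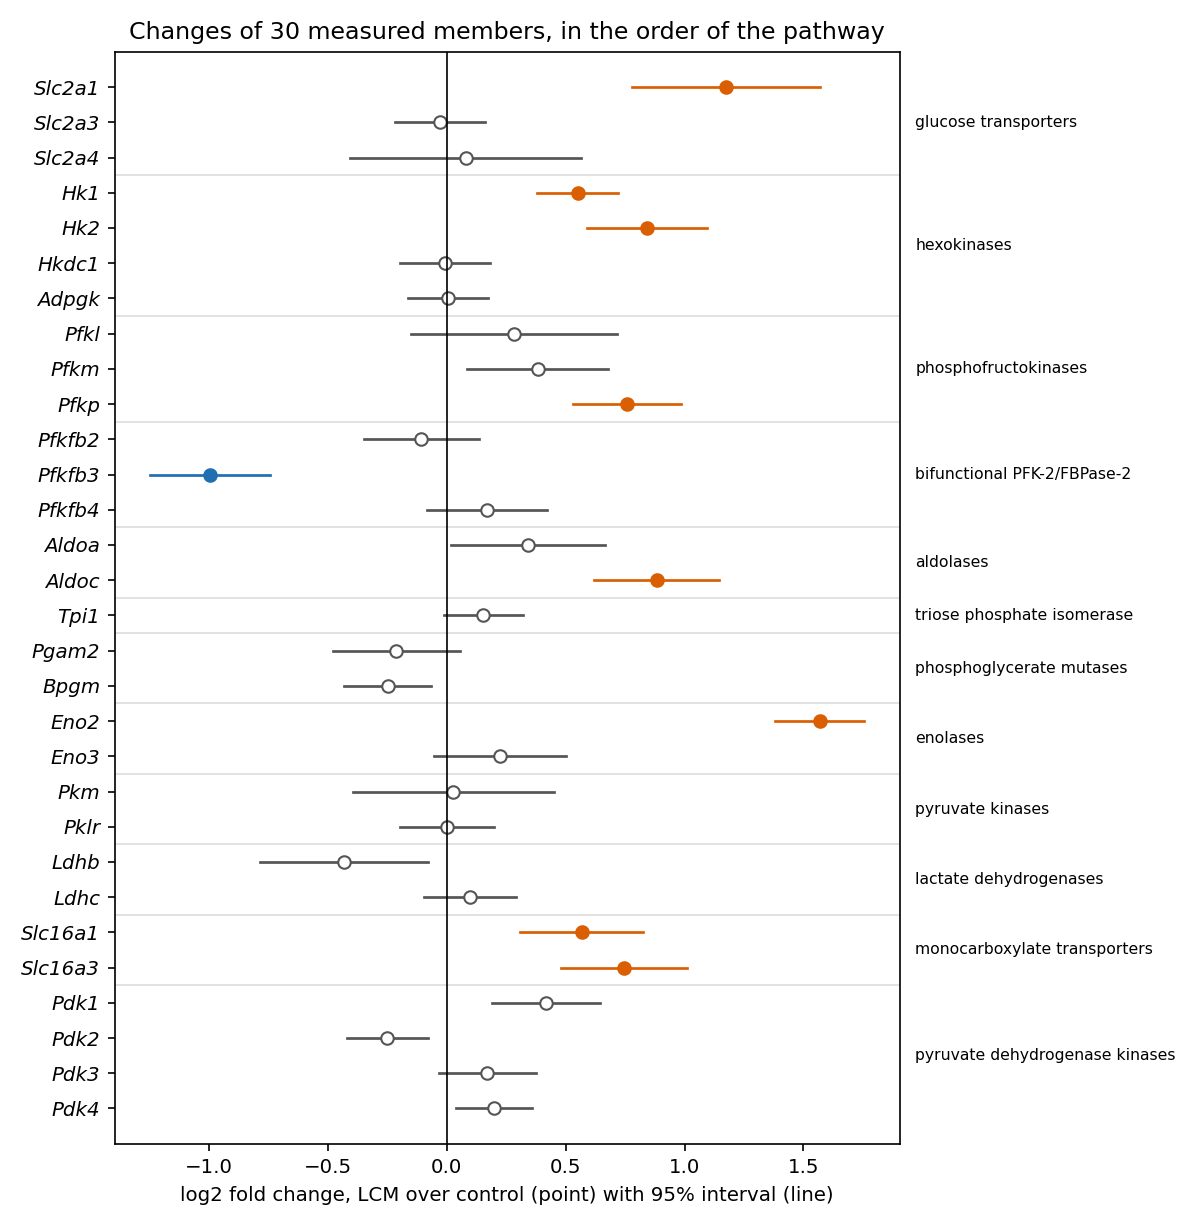
Log2 fold change of LCM over control on the horizontal axis for the 30 measured members, listed from glucose uptake to pyruvate dehydrogenase kinase, with lines for the 95% interval from limma (n = 3 arrays per group). Orange marks the 8 members that rose, blue marks Pfkfb3, which fell, and open grey points mark the 21 that did not pass. The largest value, 1.57, belongs to Eno2 and the lowest, -0.99, to Pfkfb3.

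Over all rows, control replicate 2 correlated at 0.980 and 0.984 with its fellow controls, which correlated at 0.987 with each other. LCM arrays correlated at 0.990 to 0.994 among themselves, and control arrays with LCM arrays at 0.979 to 0.989. The array weight that limma estimated was 0.20 for control replicate 2 and 0.97 to 2.70 for the other arrays. Control replicate 2 was the lowest of the 3 controls for 22 of 30 members (73.3%) and for all 8 that rose, compared with 47.3% of all genes. Its median difference from the mean of the other controls was -0.23 on the log2 scale over the 8 members that rose and -0.05 over all genes. All 8 still rose without that array, and Pdk1 joined them.

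The cultures carried the marks of fat cells. Of 11 measured adipocyte markers, 4 fell and 7 did not pass, all 11 with a log2 fold change below 0, and their mean log2 expression per array was 11.51 to 11.61 in control and 11.05 to 11.17 in LCM. Genes of pre-adipocytes were also present, at 10.93 to 11.07 in control and 10.80 to 10.97 in LCM, and 0 of 8 passed. Macrophage markers lay at 6.05 to 6.22 and 6.18 to 6.23, with 1 of 5, Cd68, higher. In whole cultures, fewer cells of a type and less RNA per cell cannot be told apart, and the part of the lower adipocyte markers in the glycolysis results was not tested. Markers of B-lymphoid leukemia cells had a mean of 5.59 to 5.78 in control and 5.61 to 5.73 in LCM with 0 of 8 past the threshold. Genes of other tissues, such as Ins2 of pancreas and Alb of liver, had a mean of 5.93 to 6.00 and 5.87 to 5.96 over the 15 measured.

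Slc2a1 encodes GLUT1, the widely expressed transporter of basal glucose uptake, and it rose 2.25-fold. Its log2 expression was 11.37, 10.89 and 11.57 in control replicates 1, 2 and 3 and 12.33, 12.49 and 12.53 in LCM replicates 1, 2 and 3. The groups did not overlap, and the lowest LCM array lay above the highest control by more than the whole spread of the controls. The log2 fold change was 1.17 (95% interval 0.78 to 1.57, limma adjusted p = 0.0143), the 17th largest rise of all genes tested.

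Slc2a4, which encodes the insulin-responsive transporter GLUT4 of fat and muscle, read 10.73, 10.08 and 10.96 in control and 10.55, 10.75 and 10.70 in LCM. The groups overlapped, with control replicate 2 lowest of all 6 arrays, and the log2 fold change was 0.08 (95% interval -0.41 to 0.57, limma adjusted p = 0.872). Without control replicate 2 it was -0.17 (limma adjusted p = 0.310), so the sign of this small value rested on that array. Control replicate 2 was low for both transporters, by 0.58 and 0.76 against the other controls. Within each array, however, the gap between them was nearly constant inside a group. Slc2a1 minus Slc2a4 was 0.64, 0.80 and 0.61 in control and 1.77, 1.74 and 1.83 in LCM, a difference between groups of 1.09 (standard error 0.06). Slc2a3, for GLUT3, the transporter typical of neurons, read 5.90 to 6.10 over all 6 arrays, within the range of the genes of other tissues, and its log2 fold change was -0.03.

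Of the hexokinases, Hk1 and Hk2 both rose. Hk2, the insulin-regulated hexokinase of muscle and fat, read 11.08, 10.79 and 11.17 in control and 11.84, 11.83 and 11.89 in LCM. This is a 1.79-fold rise without overlap (log2 fold change 0.84, 95% interval 0.59 to 1.09, limma adjusted p = 0.0104). Hk1, the housekeeping hexokinase, read 9.02, 8.88 and 8.95 in control and 9.48, 9.48 and 9.55 in LCM, a 1.46-fold rise with little spread in either group (log2 fold change 0.55, 95% interval 0.38 to 0.72, limma adjusted p = 0.0112). The rise of Hk2 exceeded that of Hk1 by 0.29 on the log2 scale (standard error 0.09), and the per-array difference did not overlap between groups. Adpgk, an ADP-dependent glucokinase, read 8.84 to 8.97 over the 6 arrays with a log2 fold change of 0.00 (95% interval -0.16 to 0.17). Hkdc1, a hexokinase domain protein, was dim, at 6.00 to 6.20.

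**Figure D2:**
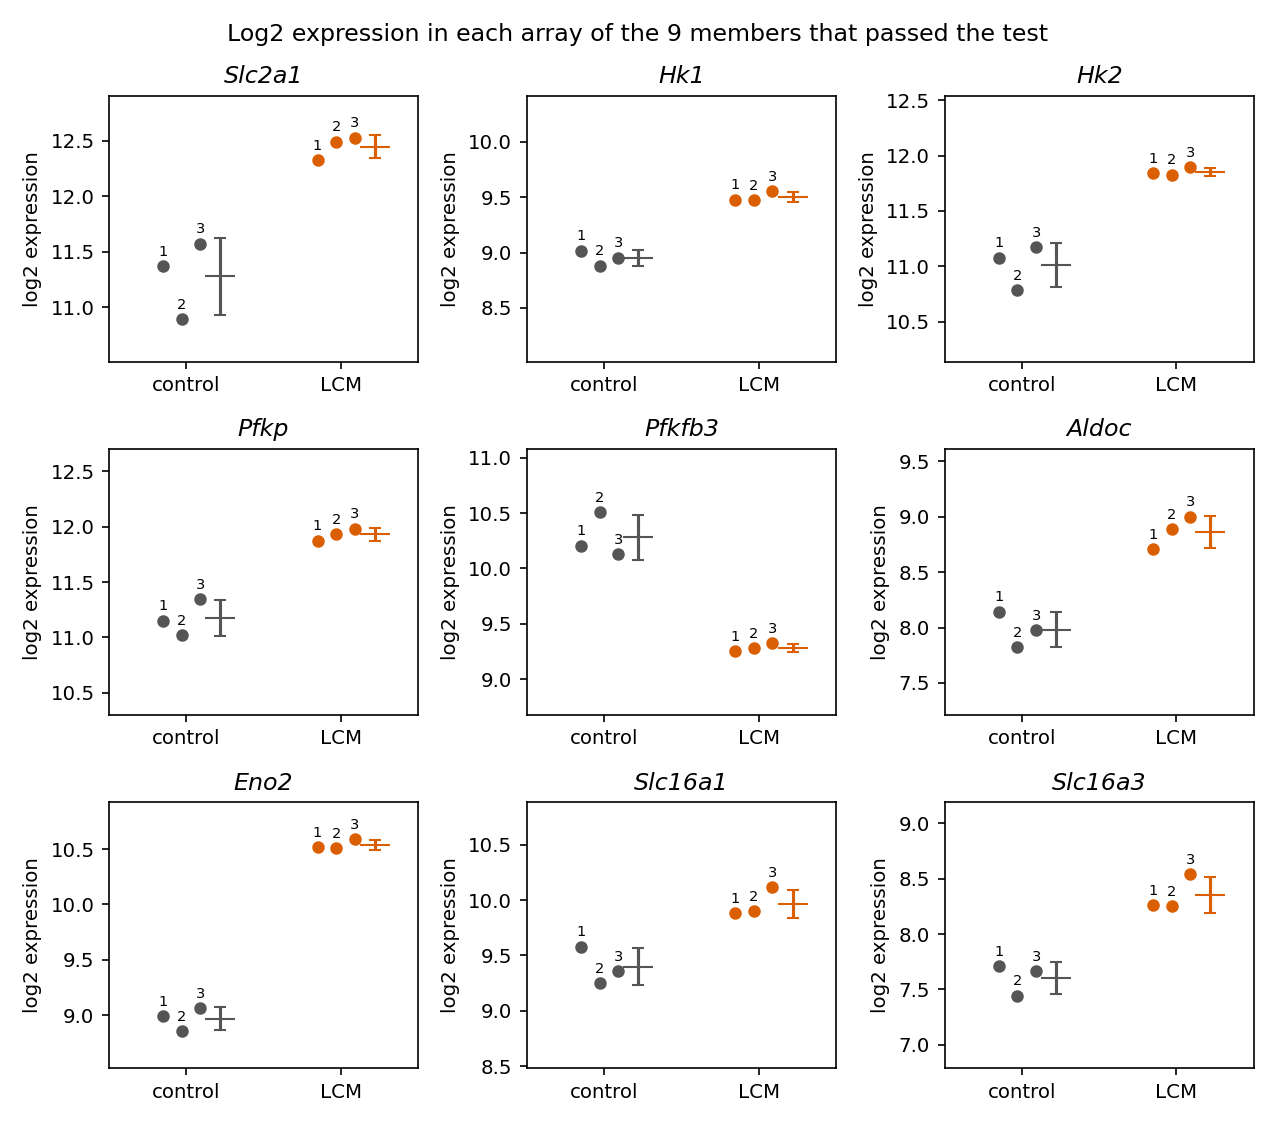
Log2 expression of the 9 members that passed the test, with a point per array numbered by replicate, grey for control and orange for LCM, and the mean ± SD of 3 arrays beside each group. Every panel spans the same number of log2 units, so heights can be compared as changes between panels and not as levels. The groups do not overlap in any panel, and control replicate 2 is the lowest control in the 8 panels of members that rose and the highest in that of Pfkfb3.

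Of the 3 phosphofructokinase subunits, named for platelet, muscle and liver, the platelet form Pfkp rose 1.69-fold. It read 11.15, 11.02 and 11.34 in control and 11.87, 11.93 and 11.98 in LCM (log2 fold change 0.76, 95% interval 0.53 to 0.98, limma adjusted p = 0.0104). Pfkm read 11.09, 10.70 and 11.18 in control and 11.39, 11.37 and 11.37 in LCM. All its LCM arrays were above all its controls, by 0.38 on average, and it did not pass (limma adjusted p = 0.151). Without control replicate 2 the change of Pfkm was 0.24 and that of Pfkl 0.05. Pfkl overlapped between groups, and its log2 fold change of 0.28 had an interval from -0.15 to 0.72. The change of Pfkp was larger than that of Pfkm by 0.37 (standard error 0.09) and larger than that of Pfkl by 0.47 (standard error 0.15) on the log2 scale, with no overlap between groups in either difference.

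The bifunctional PFK-2/FBPase-2 enzymes make and remove fructose-2,6-bisphosphate, the strongest activator of phosphofructokinase, and here the direction was the opposite. Pfkfb3, the isoform with the highest kinase to phosphatase activity, read 10.21, 10.51 and 10.13 in control and 9.25, 9.28 and 9.32 in LCM. All LCM arrays lay below all controls, and the level in LCM was about 0.502 of that in control. The log2 fold change was -0.99 (95% interval -1.25 to -0.74, limma adjusted p = 0.00738), the 23rd largest fall of all genes tested. Pfkfb4 had a log2 fold change of 0.17 and Pfkfb2 of -0.11, each with overlapping groups and an interval that held 0. The change of Pfkfb3 lay below that of Pfkfb4 by 1.16 (standard error 0.22) and below that of Pfkfb2 by 0.89 (standard error 0.08), and both differences separated the groups.

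Promoters of some of the members that moved are shown as a description. Whether the motif bears on the changes was not tested. Each is the 250 bases before a RefSeq start on GRCm38.p6, read 5′ to 3′ on the strand of the gene. Capitals mark the letters ACGTG or GCGTG, and their reverse complements CACGT or CACGC, which are the core of the hypoxia response element.
Slc2a1, chr4:119108495-119108744, plus strand: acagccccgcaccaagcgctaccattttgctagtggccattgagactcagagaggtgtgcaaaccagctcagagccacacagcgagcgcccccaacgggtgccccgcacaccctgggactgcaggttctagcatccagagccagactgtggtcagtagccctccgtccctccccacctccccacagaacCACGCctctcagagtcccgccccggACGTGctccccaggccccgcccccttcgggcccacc
Hk2, chr6:82774455-82774704, minus strand: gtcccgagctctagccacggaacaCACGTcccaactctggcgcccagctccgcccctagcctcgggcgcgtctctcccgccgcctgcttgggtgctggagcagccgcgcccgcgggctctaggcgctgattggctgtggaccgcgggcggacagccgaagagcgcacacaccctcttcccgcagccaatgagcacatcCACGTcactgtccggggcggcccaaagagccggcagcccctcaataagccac
Pfkp, chr13:6648772-6649021, minus strand: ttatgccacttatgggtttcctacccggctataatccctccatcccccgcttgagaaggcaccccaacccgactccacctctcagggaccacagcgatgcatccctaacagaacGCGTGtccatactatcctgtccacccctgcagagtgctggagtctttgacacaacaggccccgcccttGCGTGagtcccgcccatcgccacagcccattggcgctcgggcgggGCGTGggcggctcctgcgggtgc
Slc16a3, chr11:120948817-120949066, plus strand: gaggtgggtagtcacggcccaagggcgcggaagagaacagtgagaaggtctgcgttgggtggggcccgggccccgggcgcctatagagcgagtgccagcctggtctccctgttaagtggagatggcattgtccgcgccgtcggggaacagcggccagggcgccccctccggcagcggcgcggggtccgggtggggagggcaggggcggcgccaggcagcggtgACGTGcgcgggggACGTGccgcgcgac
Eno2, chr6:124769674-124769923, minus strand: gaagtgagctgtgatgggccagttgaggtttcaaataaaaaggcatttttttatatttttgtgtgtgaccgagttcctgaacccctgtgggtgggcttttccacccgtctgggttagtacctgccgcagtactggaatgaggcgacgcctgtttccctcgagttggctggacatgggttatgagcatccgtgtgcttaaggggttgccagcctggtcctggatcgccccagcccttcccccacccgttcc
Pfkfb3, chr2:11502091-11502340, minus strand: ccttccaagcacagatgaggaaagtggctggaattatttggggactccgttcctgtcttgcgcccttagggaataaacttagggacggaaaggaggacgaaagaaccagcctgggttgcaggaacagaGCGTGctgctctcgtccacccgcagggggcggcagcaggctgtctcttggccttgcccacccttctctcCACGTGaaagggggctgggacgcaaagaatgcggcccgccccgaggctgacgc
Pfkfb3, chr2:11553930-11554179, minus strand: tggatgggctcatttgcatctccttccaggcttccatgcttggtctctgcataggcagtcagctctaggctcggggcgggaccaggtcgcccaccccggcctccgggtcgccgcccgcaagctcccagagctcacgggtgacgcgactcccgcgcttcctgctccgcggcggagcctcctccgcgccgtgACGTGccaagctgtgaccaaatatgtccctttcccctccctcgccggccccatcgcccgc

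Slc2a1 held 1 ACGTG and 1 GCGTG, Hk2 and Slc16a3 held 2 ACGTG each and Pfkp held 3 GCGTG, counting both strands. The first window of Pfkfb3 held the palindrome CACGTG, which counts once on each strand, and 1 GCGTG, and its second window held 1 ACGTG. Eno2, the member with the largest rise, had neither motif in its window. RefSeq windows were matched for 28 of the 30 measured members, and 22 of them (78.6%) held either motif in at least 1 window. This applied to 7 of the 8 that rose and 15 of the 20 others, against 41.5% of all 27018 genes in the table. Of all 32841 windows of this length, 16.6% held ACGTG and 28.2% held GCGTG, and genes with several windows have more letters to match.

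Aldolase splits fructose-1,6-bisphosphate into triose phosphates. Aldoc, the isoform best known from brain, rose 1.84-fold, from 8.15, 7.83 and 7.98 in control to 8.71, 8.89 and 9.00 in LCM (log2 fold change 0.88, 95% interval 0.62 to 1.15, limma adjusted p = 0.0104). Aldoa, the muscle and general isoform, read 13.81, 13.33 and 13.81 in control and 13.94, 13.96 and 14.08 in LCM. Its groups did not overlap either, but the log2 fold change of 0.34 did not pass (limma adjusted p = 0.231), and it lay below that of Aldoc by 0.54 (standard error 0.11). Control replicate 2 was the lowest array for Aldoa, and without it the change of Aldoa was 0.18 (limma adjusted p = 0.165). Tpi1, the triose phosphate isomerase, read 13.26 to 13.39 in control and 13.45 to 13.50 in LCM, with a log2 fold change of 0.15 (95% interval -0.01 to 0.32).

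Among the phosphoglycerate mutases, Bpgm, which makes and breaks down 2,3-bisphosphoglycerate, read 8.38 to 8.52 in control and 8.14 to 8.26 in LCM. The groups did not overlap, and the log2 fold change of -0.25 had an adjusted p of 0.132 from limma. Pgam2, the muscle mutase, overlapped between groups at a dim level of 6.44 to 6.88.

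Eno2, neuronal or gamma enolase, showed the largest change of the pathway at 2.97-fold. It read 8.99, 8.86 and 9.06 in control and 10.52, 10.51 and 10.59 in LCM, so that the gap between the groups was several times wider than the spread within either. The log2 fold change was 1.57 (95% interval 1.38 to 1.76, limma adjusted p = 0.000931), the 5th largest rise of all genes and the 2nd smallest p. Eno3, the muscle enolase, read 8.75, 8.44 and 8.81 in control and 9.02, 8.79 and 8.86 in LCM, with a log2 fold change of 0.22 (95% interval -0.05 to 0.50), or 0.11 without control replicate 2. The difference between the changes of Eno2 and Eno3 was 1.34 (standard error 0.10), the widest of the 27 isoform pairs.

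No measured pyruvate kinase or lactate dehydrogenase passed, but these steps were measured in part only, as no row was used for Ldha. Pklr, the liver and red cell pyruvate kinase, read 6.98 to 7.19 over the 6 arrays with a log2 fold change of 0.00. The row named Pkm, for the pyruvate kinase of most other tissues, read 7.22 to 7.95 and had a log2 fold change of 0.03 (95% interval -0.40 to 0.45). All 24 named rows on either side of it in the order of row numbers belong to genes of chromosome 5, whereas Pkm lies on chromosome 9, so this row may not measure the Pkm gene itself. For the row used for each of the other 29 members, most neighbouring rows belong to the chromosome of that member.

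Ldhb encodes the lactate dehydrogenase subunit of heart, which favours the conversion of lactate to pyruvate. It read 9.72, 9.10 and 9.44 in control and 8.91, 9.01 and 9.03 in LCM, with all LCM arrays below all controls and a log2 fold change of -0.43 (95% interval -0.79 to -0.08, limma adjusted p = 0.169). The value depended on single controls, being -0.28 (adjusted p = 0.309 from limma) without control replicate 1 and -0.59 (adjusted p = 0.0212 from limma) without control replicate 2. With the mean of its rows, it was -0.26 (adjusted p = 0.488 from limma). A second row named Ldhb read 6.99 to 7.92 with overlapping groups, and its neighbours belong to chromosome 19 while Ldhb lies on chromosome 6. Ldhc, the subunit of testis, read 4.58 to 4.86, within the range of the genes of other tissues.

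Both lactate transporters rose. Slc16a3 encodes MCT4, the low affinity exporter of glycolytic cells, and read 7.71, 7.44 and 7.66 in control and 8.26, 8.25 and 8.54 in LCM, a 1.68-fold rise (log2 fold change 0.74, 95% interval 0.48 to 1.01, limma adjusted p = 0.0165). Slc16a1, for MCT1, which carries lactate in either direction, read 9.58, 9.25 and 9.36 in control and 9.88, 9.90 and 10.12 in LCM. This 1.48-fold rise was the weakest call of the 8 (log2 fold change 0.57, 95% interval 0.31 to 0.83, limma adjusted p = 0.0360). The 2 changes differed by 0.18 (standard error 0.05), with per-array differences of -1.87 to -1.70 in control and -1.65 to -1.58 in LCM for Slc16a3 minus Slc16a1.

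Pyruvate dehydrogenase kinases switch off the entry of pyruvate into the citrate cycle, and none of the 4 passed. Pdk1 read 11.36, 11.15 and 11.48 in control and 11.78, 11.76 and 11.72 in LCM, with no overlap and a log2 fold change of 0.42 (95% interval 0.19 to 0.64, limma adjusted p = 0.0602). Pdk4, the kinase raised by fasting, read 8.45, 8.45 and 8.37 in control and 8.58, 8.63 and 8.64 in LCM, a log2 fold change of 0.20 without overlap (limma adjusted p = 0.169). Pdk2 had the opposite sign, at 9.55, 9.49 and 9.56 in control and 9.20, 9.30 and 9.35 in LCM, a log2 fold change of -0.25 also without overlap (limma adjusted p = 0.113). Pdk3 overlapped, with a log2 fold change of 0.17. The change of Pdk1 exceeded that of Pdk2 by 0.67 (standard error 0.10), that of Pdk3 by 0.25 (standard error 0.06) and that of Pdk4 by 0.22 (standard error 0.13), and the last of these overlapped between groups.

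**Figure D3:**
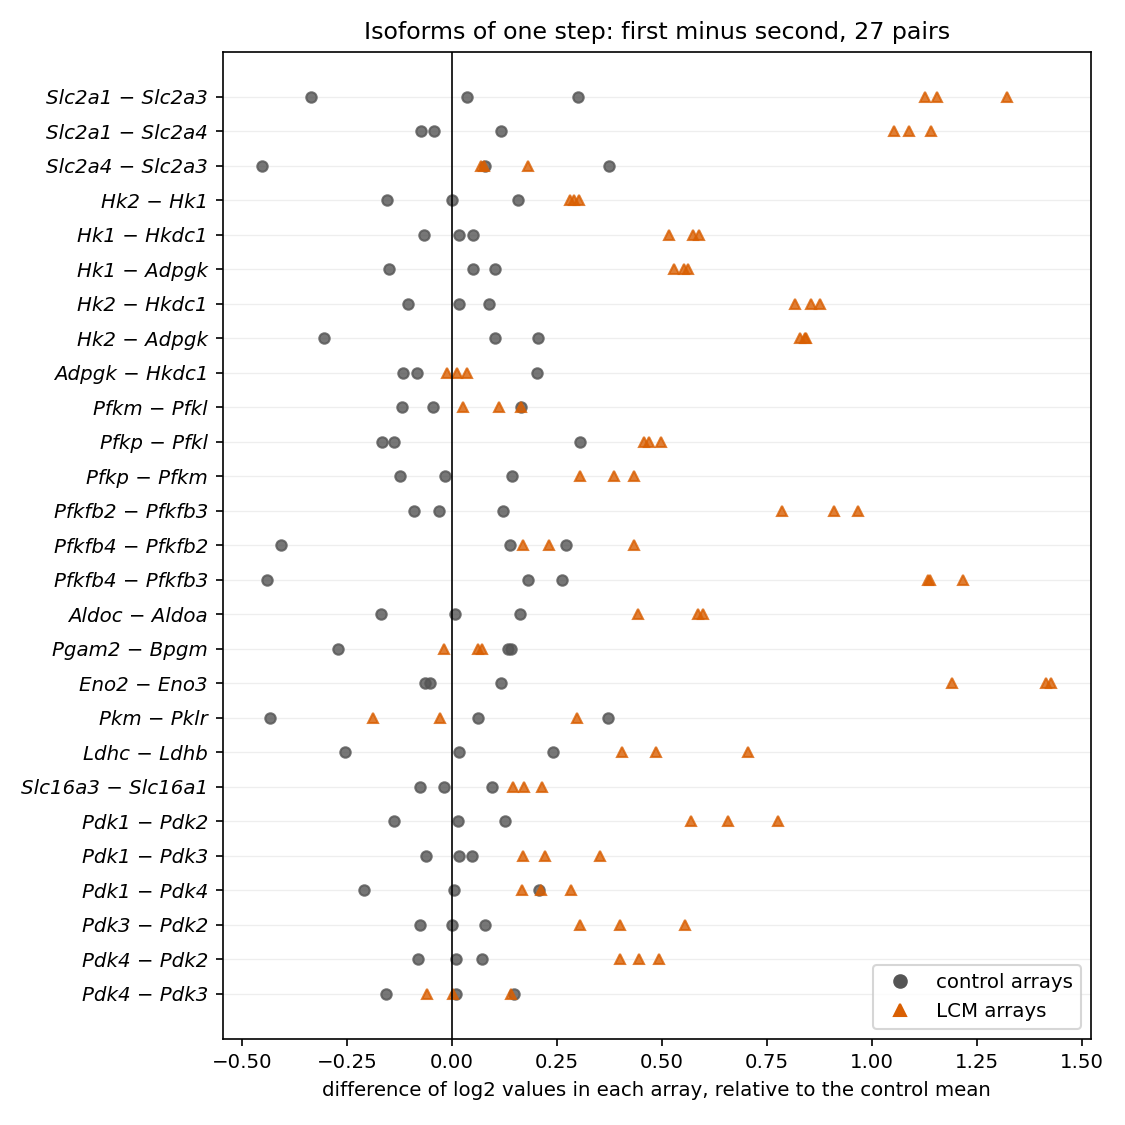
Difference between the log2 values of 2 isoforms of 1 step in each array, relative to the control mean of that difference, for all 27 pairs, with control arrays as grey circles and LCM arrays as orange triangles. The isoform with the higher log2 fold change is written first, and the groups do not overlap in 19 of the 27 pairs.

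Whether isoforms of a step changed unequally was tested for all 27 pairs by the difference of their log2 values in each array. In 19 pairs (70.4%) the per-array differences did not overlap between groups, compared with 28.8% of all pairs of the 14860 genes. These 19 reached p = 0.1 in a two-sided exact permutation test (adjusted p = 0.142 over the 27 pairs), which is the smallest value that 3 arrays against 3 allow, so no pair could pass 0.05. Pairs that share a gene are not independent of each other. Every pair that holds a member called by limma was among the 19, so their share is not separate from those calls. The rest of the 19 were Ldhc with Ldhb and pairs of pyruvate dehydrogenase kinases. The 8 pairs that overlapped included Pfkm and Pfkl, which differed by 0.10 (standard error 0.09), and Pdk4 and Pdk3, which differed by 0.03 (standard error 0.11).

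The calls differed in how many subsets, each with 1 array left out, they passed in. Eno2 passed with each of the 6 arrays left out in turn, at an adjusted p of at most 0.0171, as did Pfkfb3 at up to 0.0488. Aldoc passed in 4 of the 6 subsets, Hk1, Hk2 and Pfkp in 3, Slc2a1 and Slc16a3 in 2 and Slc16a1 in 1, that without control replicate 2. Without LCM replicates 1, 2 and 3 in turn, the adjusted p of Slc2a1 was 0.0587, 0.0737 and 0.0772. The highest adjusted p over the 6 subsets was 0.0735 for Hk1, 0.0704 for Hk2, 0.0704 for Pfkp, 0.0644 for Aldoc, 0.0736 for Slc16a3 and 0.148 for Slc16a1. Over these subsets the log2 fold change ran from 0.52 to 0.58 for Hk1, 0.73 to 0.92 for Hk2 and 0.68 to 0.84 for Pfkp. It ran from 0.80 to 0.96 for Aldoc, 0.98 to 1.32 for Slc2a1, 0.65 to 0.80 for Slc16a3 and 0.49 to 0.66 for Slc16a1. Fewer genes passed over the whole table as well, with 99, 79 and 60 without LCM replicates 1, 2 and 3. The methods' paired t-test, at an unadjusted p under 0.05, gave 9 members higher and 2 lower, against 5.98% and 5.87% of all genes. Its unpaired form gave 11 and 3, against 8.26% and 9.26%, so the shares of lower members lay near those of all genes. After Benjamini-Hochberg adjustment, the paired form called 0 members and the unpaired form called Hk1 and Eno2.

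**Figure D4:**
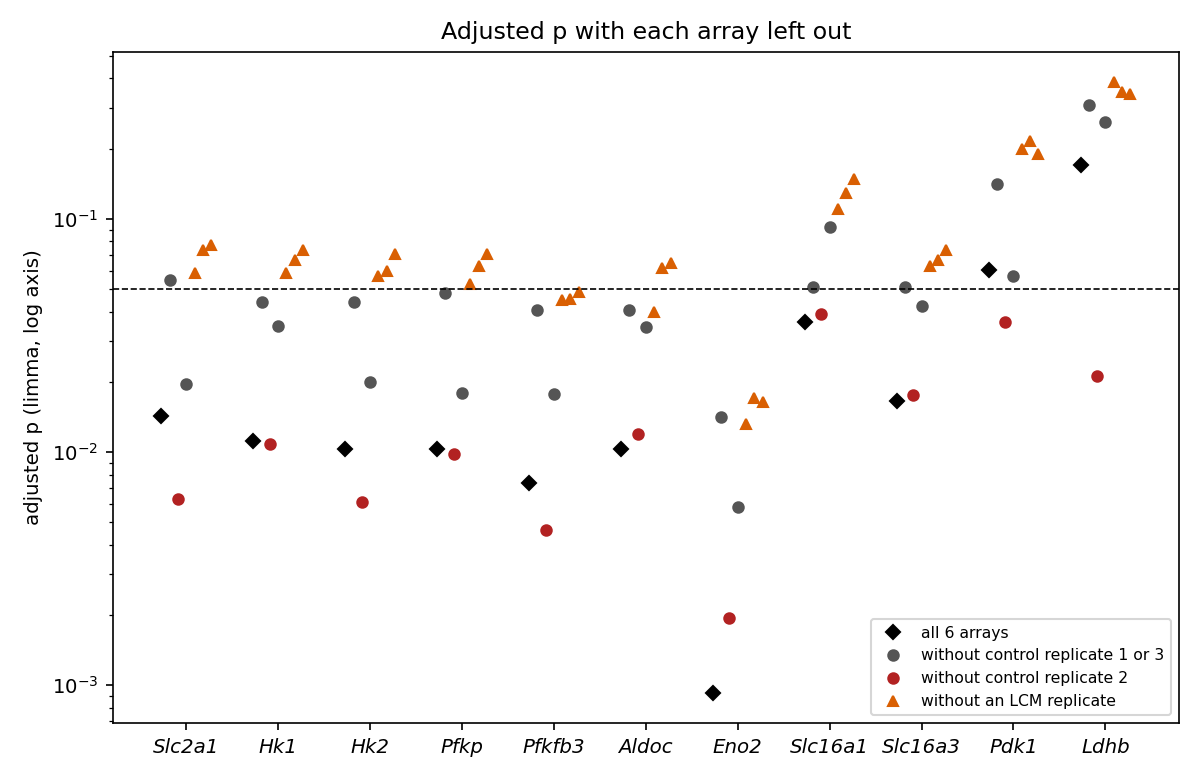
Adjusted p from limma on a log axis with all 6 arrays (black diamonds) and with 1 array left out (circles for a control array, red for control replicate 2, and orange triangles for an LCM array), for the 9 members that passed and for Pdk1 and Ldhb. The dashed line is the threshold of 0.05. Eno2 and Pfkfb3 stay below it in every subset, and Pdk1 and Ldhb pass without control replicate 2.

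Of the members with no row of their own, a row naming both Mdh1 and Pgam1 had a log2 fold change of -0.33 (limma over all rows, adjusted p = 0.167). Mdh1 is the cytosolic malate dehydrogenase, so the row cannot be assigned to the mutase. A row naming Pgm1 and Pgm2, the phosphoglucomutases that link glucose-6-phosphate with glycogen, had a log2 fold change of 0.35 (limma over all rows, adjusted p = 0.340), and another had 0.26 (limma over all rows, adjusted p = 0.226). In all 3 rows the groups did not overlap, but none of the 3 passed. Over all genes, 12.8% had all LCM arrays above all controls and 14.7% had them below.

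Neighbouring pathways held 82 further measured genes in 7 lists, of which 9 rose and 4 fell, with a median log2 fold change of 0.02. These lists were compared with the members by counts and medians. Of 17 genes of glycogen metabolism, 3 rose and 0 fell, and the median was 0.04. Gbe1, the branching enzyme, rose 1.62-fold (limma adjusted p = 0.00738), Gys1, the glycogen synthase of muscle and fat, 1.52-fold (limma adjusted p = 0.0256) and Stbd1, which tethers glycogen to membranes, 2.29-fold (limma adjusted p = 0.00981).

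Of 7 other hexose transporters, 0 passed, and 0 had an unadjusted p under 0.05 by limma. The smallest adjusted p there was 0.336, for Slc2a10, at a log2 fold change of 0.30, and Slc2a12 had -0.11. Of 14 other monocarboxylate transporters and their chaperones, Slc16a6, whose product carries ketone bodies in zebrafish liver, rose 1.88-fold (limma adjusted p = 0.00596). Slc16a4 had a log2 fold change of -0.78 (limma adjusted p = 0.0564).

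Of 7 genes for the entry of pyruvate into mitochondria, Pdhx, a structural subunit of pyruvate dehydrogenase, fell by 0.38 (log2, limma adjusted p = 0.0274). Pdpr, a regulator of the phosphatase that opposes the kinases above, had a log2 fold change of 0.36 (limma adjusted p = 0.0651). Of 10 genes of gluconeogenesis and fructose use, Pck1 fell by 1.18 on the log2 scale, or 2.27-fold (limma adjusted p = 0.00886). Pck1 encodes the cytosolic phosphoenolpyruvate carboxykinase that feeds glycerol synthesis in fat. Its mitochondrial counterpart Pck2 had a log2 fold change of 0.34 (limma adjusted p = 0.125).

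Glycolysis needs its cytosolic NADH reoxidized, by lactate dehydrogenase or by shuttles. Of 9 genes of the NADH shuttles and glycerol phosphate, 3 rose (33.3%, against 26.7% of the glycolysis members) and Gpd1 fell. Gpd1, the cytosolic glycerol phosphate dehydrogenase, fell by 0.83 on the log2 scale, or 1.78-fold (limma adjusted p = 0.00685). Its mitochondrial partner Gpd2 rose 1.31-fold (limma adjusted p = 0.0323). Expression of Got1, an aspartate aminotransferase of the cytosol, rose 2.49-fold and that of Slc25a12, the aspartate-glutamate carrier, 1.43-fold (adjusted p = 0.0104 and 0.0130 from limma).

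Of 18 genes for HIF and other regulators of glycolysis, 2 rose and 1 fell. Egln1, a prolyl hydroxylase that marks HIF for destruction, rose 1.46-fold and Vhl, which recognizes the marked protein, 1.40-fold (adjusted p = 0.0319 and 0.0347 from limma). Epas1, which encodes HIF-2α, fell by 0.49 on the log2 scale, or 1.40-fold (limma adjusted p = 0.0305). Egln1 passed in 2 of the 6 subsets that leave out an array and Vhl, Epas1, Gpd2 and Pdhx in 1 each, whereas Pck1, Gpd1 and Slc16a6 passed in all 6.

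**Figure D5:**
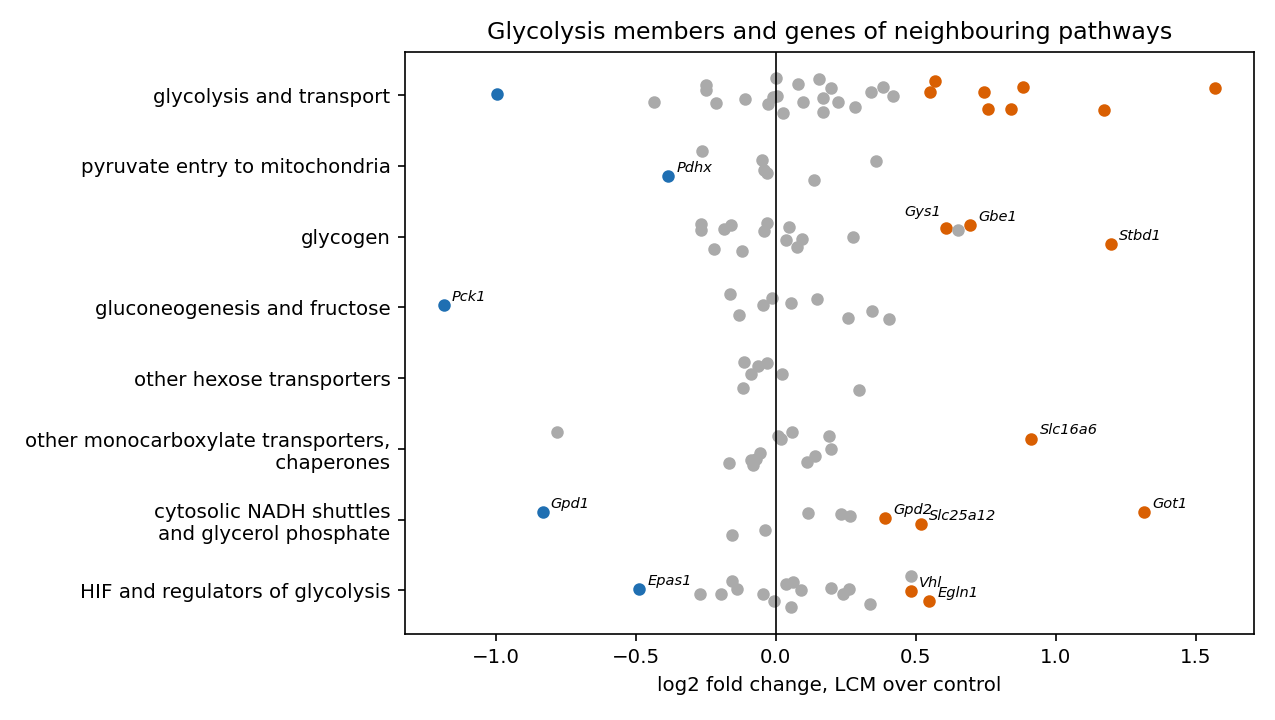
Log2 fold change of LCM over control for each measured gene of glycolysis and transport and of 7 neighbouring lists, 1 point per gene, spread vertically at random within a list. Orange points rose, blue points fell and grey points did not pass (limma, n = 3 arrays per group). The other hexose transporters hold no coloured point, and the genes that passed in the neighbouring lists are named.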

How the data were processed

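The table deposited for the 6 arrays holds log2 expression, computed by the authors with RMA (background correction, normalization between arrays and summary of probes), 1 column per array. No source read here gives the RMA version or settings, the array version or the genome build. Rows were named through the platform annotation and checked against RefSeq (GRCm38.p6). Of 23332 rows, 14996 name 1 gene, 1019 several and 7317 none listed, and where a gene has several rows, that with the highest mean was used. Groups were compared with limma 3.58.1 in R 4.3.3 (lmFit, eBayes, two-sided, no block), with Benjamini-Hochberg values over 14860 genes and a threshold of 0.05. Intervals are 95% limma intervals. Isoform pairs were tested with an exact permutation test (SciPy 1.17.1). The fit was tested on simulated data. Precision is limited by having 3 arrays a group. The labels call them biological replicates but describe no separate differentiations, so p-values measure the spread between these arrays.

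Any of the 40 members could be named, and of each neighbouring list the genes that passed, or the 2 with the smallest adjusted p where fewer than 2 passed. The members and lists were chosen with earlier results of these data known. The RefSeq promoter windows were searched for 2 motifs. Alternatives were all rows tested, the mean of a gene's rows, filters on dim genes, repeated quantile normalization, centring, a trend, a robust prior, array weights, a replicate block, the methods' t-test and each array left out.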

Additional observations from a re-analysis of the deposited data

How the results depend on the processing

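No called member changed sign under any alternative run. The count of members that rose, 8, was 6 with all rows tested, 7 with arrays centred on their medians, 8 to 9 under the other 7 limma settings without a block, 2 with the unpaired form of the methods' t-test and 0 with the paired form, and 1 to 9 with each array left out. Members that fell, 1, numbered 3 with array weights, 0 with either t-test and 1 to 2 with each array left out, and 1 otherwise.

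In the neighbouring lists, 9 genes rose and 4 fell, against 5 and 2 with all rows tested, 18 and 8 with array weights, 0 and 0 with the paired t-test, 3 and 2 with the unpaired form, and 1 to 13 and 2 to 7 with each array left out. Isoform pairs without overlap, 19, numbered 18 with the mean of a gene's rows and 20 with repeated quantile normalization. They numbered 19 to 21 with an array left out and 19 with same-numbered arrays compared, but neither of these could lower the count. The pairs were not counted under the other alternatives. With the replicate number as a block, 7 members rose and 1 fell, Slc16a1 was lost, and 324 genes passed over the whole table, against 341 that rose and 292 that fell. The deviations of same-numbered arrays correlated at -0.23, 0.06 and 0.11, and those of differently numbered arrays at -0.28 to 0.28. With 3 arrays a group, these values cannot show whether the numbers pair the arrays. The cause of these shifts was not tested. Signal over background limits Ldhc, Slc2a3, Hkdc1, Pgam2 and Pklr, which lay within the range of genes of other tissues.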
